A study of Mus musculus with 2 samples.

Results

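The TRIM genes were taken as the protein-coding genes of the deposited count table whose name starts with Trim and a number, which gave 68 genes of 54751 in the table. Of these, 40 had at least 26 counts over the 2 libraries and are described with their values, and 28 are listed as not expressed. The libraries were made from myeloid-derived suppressor cells (MDSCs), a mixed population of immature neutrophil-like and monocyte-like cells that restrains T cells, grown from the bone marrow of mice whose genotype is labelled WT. One library came from cells given vehicle (control) and the other from cells given mrWNT2, in both cases on day 0 and day 3, with collection on day 6. WNT2 belongs to the secreted WNT ligands, and the question was how exposure to it changes gene expression in these cells. The dose, the age and strain of the mice and the number of mice behind each culture are not given in the sources used here. Each group had 1 library, with 13474453 counts in control and 12621110 in mrWNT2, so no difference has a replicate check and no p-value is given.

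TRIM proteins are defined by an amino-terminal tripartite motif, a RING finger, B-box zinc fingers and a coiled coil, followed by a carboxy-terminal part that differs between members and binds substrates. The RING finger makes most of them E3 ubiquitin ligases, which pass ubiquitin from an E2 enzyme to a target. Many act in innate immunity, where they restrict retroviruses or tune signalling from nucleic acid sensors and Toll-like receptors, and several are themselves induced by interferon. In myeloid cells they are best known as brakes or accelerators of inflammatory and interferon signalling.

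A group of TRIM genes related to Trim5, Trim30a and Trim34a lies side by side on chromosome 7. The promoters of this group are shown first because most of them hold the core of the interferon-stimulated response element, the DNA site of interferon-activated transcription factors, searched as GAAANNGAAA on both strands with overlapping matches counted. RefSeq promoters (GRCm38.p6, from 250 bases before to 50 bases after each start) were found for 29 of the 40 expressed TRIM genes, and 8 of these 29 held the core: Trim5, Trim12a, Trim12c, Trim21, Trim26, Trim30a, Trim30d and Trim34a. Of the 8 expressed genes of the chromosome 7 group, 6 held it, against 3.44% of all 32851 promoters. In the lines below the core is in capitals, and each site reads 5′ to 3′ on the strand on which it matches.
Trim30a (chr7:104465210-104465239, plus strand): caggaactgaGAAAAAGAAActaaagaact
Trim30d (chr7:104507871-104507900, plus strand): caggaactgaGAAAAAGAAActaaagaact
Trim5 (chr7:104288136-104288165, plus strand): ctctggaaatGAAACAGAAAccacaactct
Trim12a (chr7:104315466-104315495, plus strand): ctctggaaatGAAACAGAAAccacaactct
Trim12c (chr7:104353359-104353388, plus strand): agctggaaatGAAACAGAAAccacaactct
Trim34a (chr7:104244457-104244486, minus strand): gcagagaaaaGAAACTGAAActccaaacca
Trim21 (chr7:102565450-102565479, minus strand): cctctgagagGAAACTGAAAgtgaaatttg
Trim26 (chr17:36836976-36837005, minus strand): ccgagaaaagGAAAGTGAAAtcggaagcgg
The windows of Trim30a and Trim30d were identical over their whole length, as were those of Trim5 and Trim12a. Trim21 and Trim26 each held a second, overlapping match, and the promoter of another RefSeq start of Trim30a held a match at chr7:104446104-104446133. A match is a description of the letters and not of a bound site.

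Most TRIM genes were near the same level in both libraries. Of the 40 expressed genes, 36 lay within 1.5-fold, against 85.2% of all 12901 genes with at least 26 counts and 87.6% of the protein-coding ones. In the mrWNT2 library 2 TRIM genes, Trim29 and Trim13, were higher by at least 1.5-fold, against a background of 7.6% of all genes and 7.28% of protein-coding genes. Another 2, Trim9 and Trim47, were lower by that much, against 7.15% and 5.15%, so neither count exceeded its background. When the interval also had to leave out a ratio of 1, 2 TRIM genes were higher (6.26% of all and 6.25% of protein-coding genes) and 1, Trim9, was lower (5.29% and 4.14%). Past 2-fold stood 1 gene on either side, Trim29 higher (3.37% and 3.35%) and Trim9 lower (2.58% and 1.96%). Ratios below 1 were found for 21 of the 40, against 47.8% of all and 46.2% of protein-coding genes. The median log2 ratio of mrWNT2 over control, from counts scaled to library size without a pseudocount, was -0.02 for the TRIM genes and 0.02 for all genes. The middle 50% of the TRIM ratios spanned 0.39 on the log2 scale, and that of all expressed protein-coding genes 0.37. Summed over all 68 genes, TRIM transcripts made up 1239.6 CPM (counts relative to library size) in control and 1230.5 in mrWNT2. Each ratio is given with an exact 95% binomial (Clopper-Pearson) interval, which reflects counting alone and sets one library against the other, not one condition against the other. With the scaling used here, intervals left out a ratio of 1 for 14 genes, 7 higher in mrWNT2 (20.9% of all genes and 22.5% of protein-coding ones) and 7 lower (18.8% and 19.2%).

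**Figure D1:**
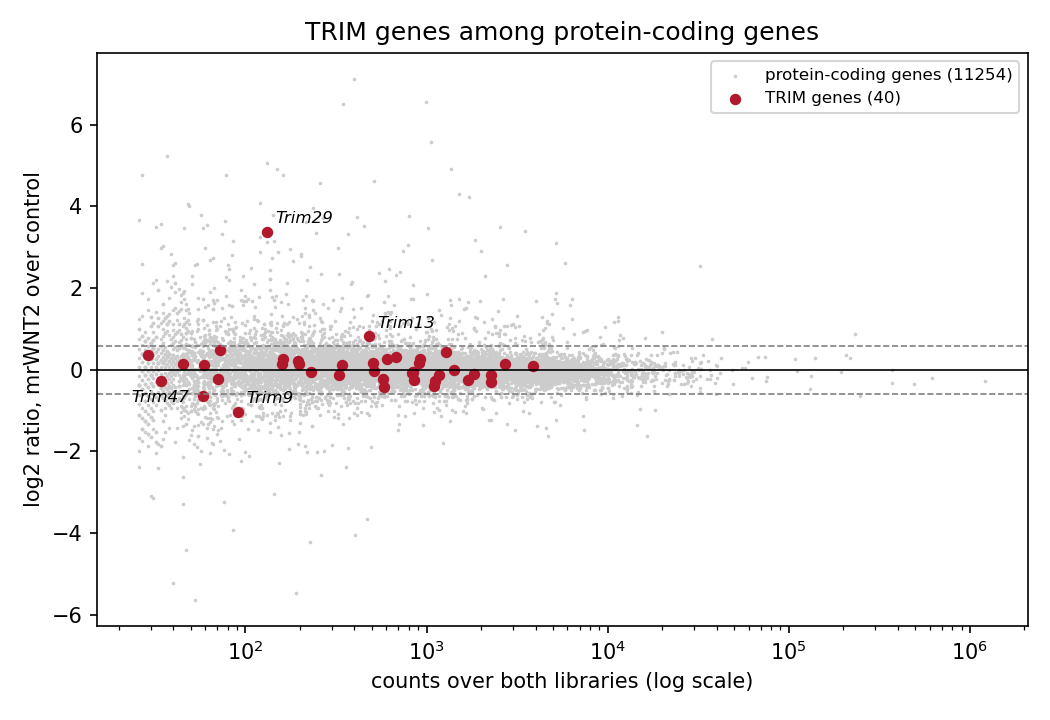
Log2 ratio of mrWNT2 over control (vertical axis) against the counts summed over both libraries (horizontal axis, log scale) for 11254 protein-coding genes (grey) and 40 TRIM genes (red), with dashed lines at 1.5-fold. Trim29 stands far above the other TRIM genes, Trim13 lies above the upper line, Trim9 and Trim47 lie below the lower line, and the other 36 lie between the lines.

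Trim29 (ENSMUSG00000032013, chromosome 9, 43310848 to 43336115, GRCm38) had the largest ratio of the family. It encodes a TRIM protein without a RING finger, known from epithelia and as a regulator of innate responses in lung macrophages. Control held 12 of its reads and mrWNT2 119, or 0.261 and 2.66 FPKM (the deposited level per transcript length and depth). It was thus barely detected in control and low in mrWNT2, and it passed the minimum of 26 counts through the mrWNT2 library alone. Its level was 10.4-fold higher in mrWNT2 (interval 5.75 to 20.8), and 36 of 11254 expressed protein-coding genes had a higher ratio. No 50-base stretch of its annotated transcripts was found in transcripts of another gene. Because Trim29 is known from epithelia, 8 epithelial markers were looked up after its values were seen. Krt5, Krt14, Krt8 and Krt19 had 0 counts in both libraries, and Epcam had 2 in each. Krt18 had 1 and 4 counts and Trp63 had 0 and 2. The 1 epithelial marker with at least 26 counts, Cdh1, had 572 in control and 364 in mrWNT2. A part of epithelial cells in the Trim29 ratio was not tested.

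Trim13 (ENSMUSG00000035235, chromosome 14, 61598247 to 61605946) encodes a ligase anchored in the endoplasmic reticulum membrane that takes part in the degradation of proteins from that compartment. Control held 179 counts and mrWNT2 302, or 8.21 and 14.2 FPKM. Unlike Trim29 it was well expressed in both libraries, and it was the only TRIM gene with at least 260 counts that lay beyond 1.5-fold. Its level was 1.77-fold higher in mrWNT2 (1.47 to 2.15). The non-coding gene Dleu2, which lies across Trim13 on the opposite strand, went the other way. From 598 counts in control it stood at 378 in mrWNT2, 1.5-fold lower (1.32 to 1.72). No exon base is shared by the pair in the GENCODE M21 annotation. Of the 50-base stretches of Trim13 transcripts, 14.2% also occur in the gene model Gm9359, which had 0 counts in both libraries.

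Trim9 (ENSMUSG00000021071, chromosome 12, 70244533 to 70347614) encodes a ligase best known from neurons. Control held 62 counts and mrWNT2 29, or 0.33 and 0.159 FPKM, so it was among the weakest of the 40 genes in both. Its level was 2.03-fold lower in mrWNT2 (1.29 to 3.28), and 204 of 11254 expressed protein-coding genes had a lower ratio. Of 6 neuronal markers looked up after these values were seen, none reached 26 counts, and Map2, Snap25 and Stmn2 were at 0 in both libraries. The highest, Syp, had 12 counts in control and 1 in mrWNT2. Trim47, at 36 and 22 counts or 0.996 and 0.625 FPKM, was 1.56-fold lower, but the interval of this ratio (0.891 to 2.78) included 1. It shares 225 exon bases on the same strand with its neighbour Trim65, which had 92 and 102 counts and was 1.17-fold higher (0.871 to 1.56).

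**Figure D2:**
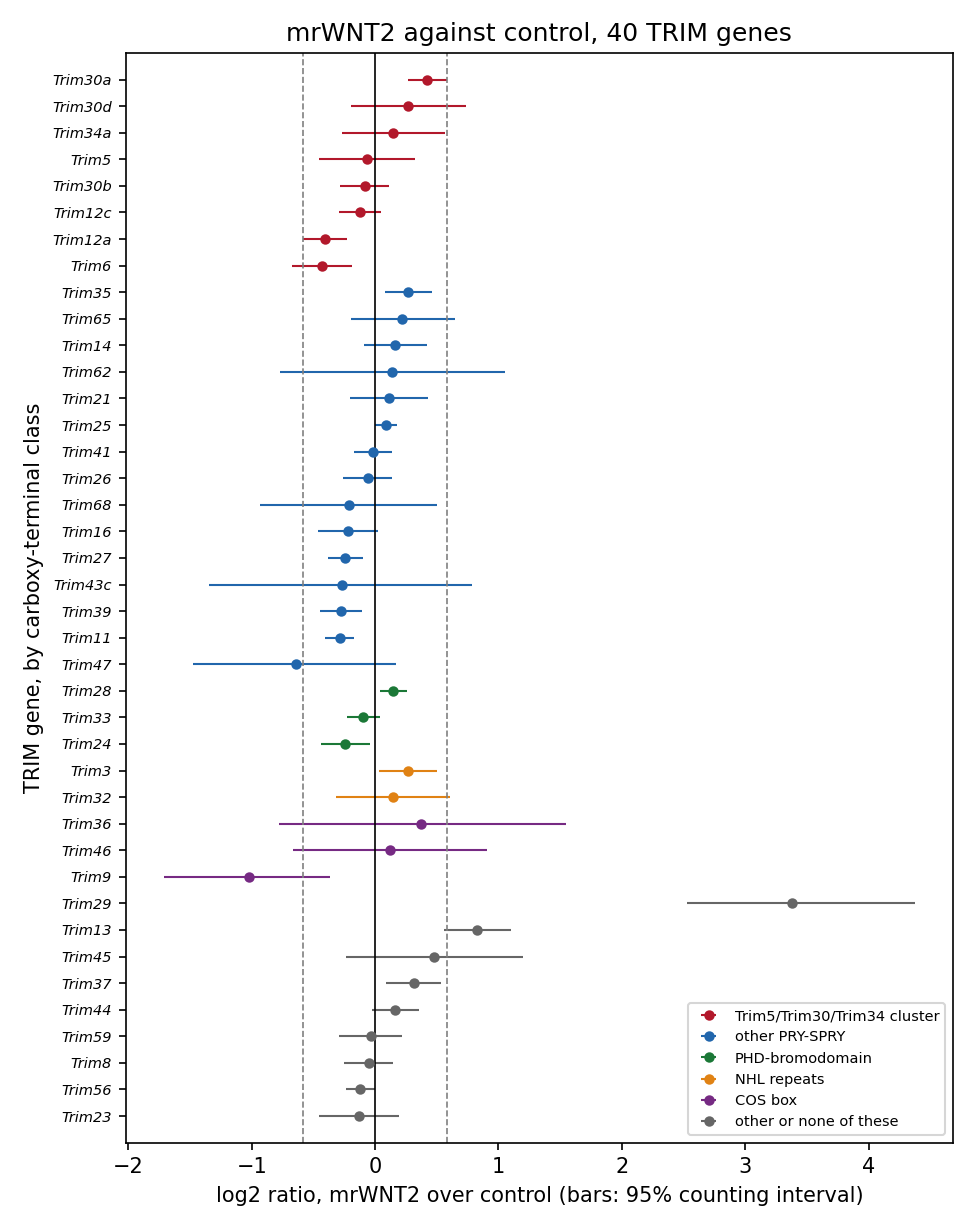
Log2 ratio of mrWNT2 over control (horizontal axis) for each of the 40 TRIM genes (vertical axis), coloured by the carboxy-terminal class of the protein; bars are exact 95% counting intervals and dashed lines mark 1.5-fold. The intervals of Trim29 and Trim9 are wide but leave out 0, and in every class at least 1 interval crosses 0.

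The family covered a wide range of levels. By mean FPKM, 17 genes lay at 5 or above, 15 between 1 and 5, and 8 below 1. The 6 highest, Trim25, Trim28, Trim11, Trim41, Trim12c and Trim30a, together held 45% of all TRIM FPKM in control and 44.9% in mrWNT2. Trim25 encodes the ligase that ubiquitinates the RNA sensor RIG-I, and it also conjugates the ubiquitin-like protein ISG15. It stood at 25.4 FPKM in control and 26.4 in mrWNT2 (1935 and 1957 counts), 1.06-fold higher with an interval (0.998 to 1.13) that included 1. Trim28 encodes the corepressor KAP1, which zinc finger proteins recruit to retroelements. It stood at 24.1 and 26.1 FPKM (1325 and 1394 counts), 1.11-fold higher (1.03 to 1.19). Trim11 was at 27.1 FPKM in control and 21.7 in mrWNT2 (1283 and 999 counts), 1.22-fold lower (1.12 to 1.33). It led the family in control and was the third in mrWNT2, behind Trim25 and Trim28. Trim41 stood at 15.7 and 15.2 FPKM (729 and 686 counts), a ratio of 0.99 (0.89 to 1.1).

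**Figure D3:**
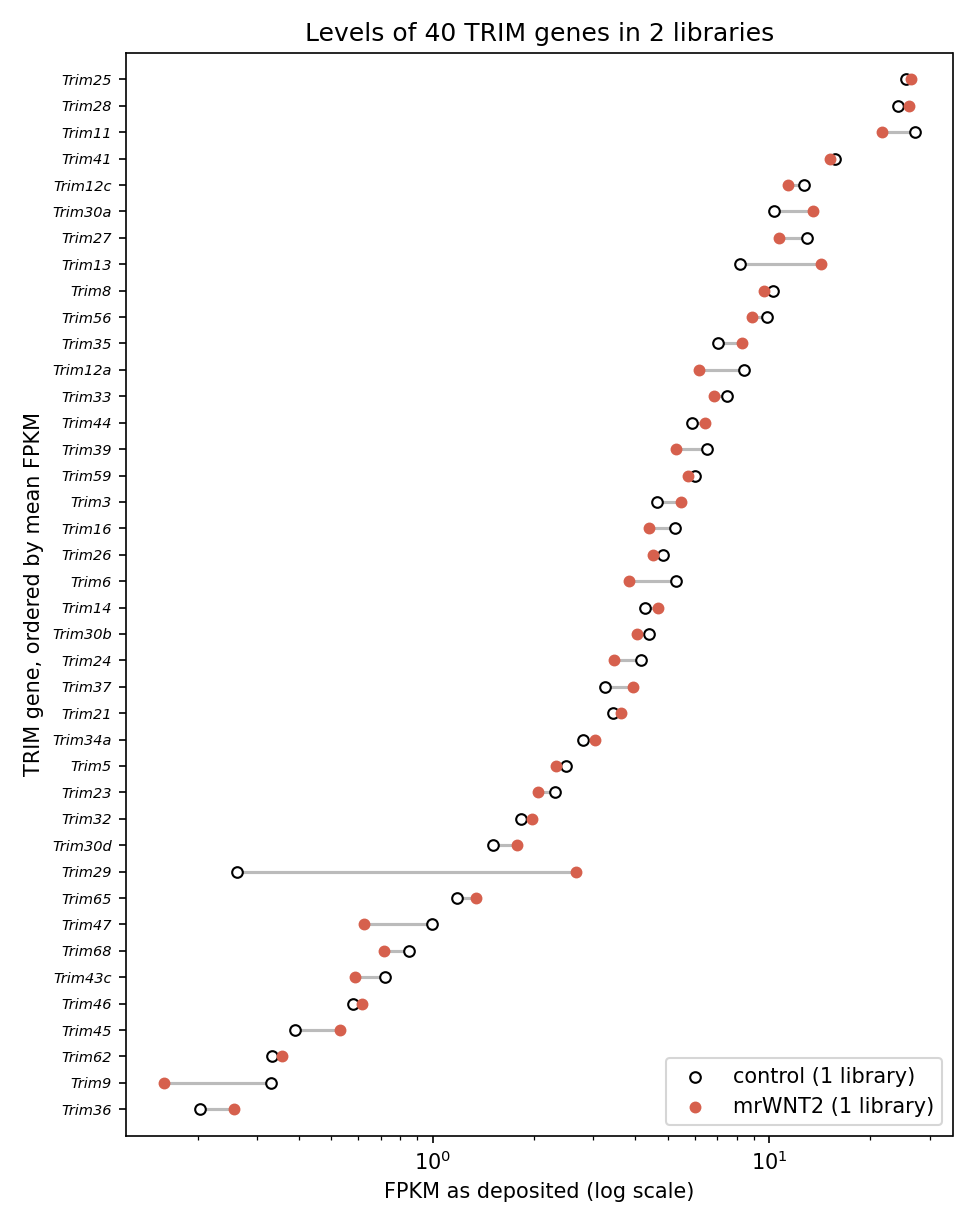
Deposited FPKM (horizontal axis, log scale) of the 40 TRIM genes (vertical axis, ordered by mean FPKM) in the control library (open circles) and the mrWNT2 library (filled circles), 1 library each. The order runs from Trim25 at 25.4 and 26.4 FPKM to Trim36 at 0.203 and 0.256, and the widest gap between the circles is that of Trim29.

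The chromosome 7 group holds restriction factors and signalling regulators related to the primate TRIM5, TRIM6 and TRIM34, some of them multiplied in rodents. Of its 10 genes, 8 were expressed, and all 8 lay within 1.5-fold, as did 85.2% of all genes. Trim30a (ENSMUSG00000030921, chromosome 7, 104409025 to 104465193), whose product restrains Toll-like receptor signalling through loss of TAB2 and TAB3, had 561 counts in control and 716 in mrWNT2, or 10.3 and 13.5 FPKM. It was 1.34-fold higher in mrWNT2 (1.2 to 1.5). Trim12a (chromosome 7, 104299894 to 104315466) had 642 and 461 counts, or 8.4 and 6.2 FPKM, and was 1.32-fold lower (1.17 to 1.5). Trim6, whose product makes the ubiquitin chains that activate the kinase IKK epsilon, had 342 and 241 counts, or 5.29 and 3.83 FPKM. It was 1.35-fold lower (1.14 to 1.6). The interval of Trim30a thus did not overlap that of Trim12a or Trim6. Of the 8 expressed genes, 1 had an interval above 1 and 2 had one below. Among all genes these shares were 20.9% and 18.8%, so the cluster was close to the background in this.

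The other 5 expressed genes of the cluster had intervals that included 1. Trim12c had 627 counts in control and 548 in mrWNT2, or 12.7 and 11.4 FPKM, a ratio of 0.919 (0.818 to 1.03). Trim30b had 438 and 393 counts, or 4.4 and 4.06 FPKM, a ratio of 0.944 (0.821 to 1.08). Trim5 had 121 and 110 counts, or 2.48 and 2.32 FPKM, a ratio of 0.956 (0.732 to 1.25). These 3 were on the lower side, while Trim34a and Trim30d were on the higher side. Trim34a had 96 and 101 counts, or 2.8 and 3.03 FPKM, a ratio of 1.11 (0.828 to 1.48). Trim30d had 75 and 86 counts, or 1.51 and 1.78 FPKM, a ratio of 1.21 (0.874 to 1.67). The genes of this cluster resemble each other closely enough for reads to be shared. Of the 50-base stretches in their annotated transcripts, 59.7% for Trim34a, 36.6% for Trim5, 33.7% for Trim12c and 10.5% for Trim12a also occur in transcripts of other genes, so the split of reads among these is uncertain. The share was lower for Trim30d (7.49%), Trim30a (5.98%), Trim6 (1.5%) and Trim30b (1.48%).

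**Figure D4:**
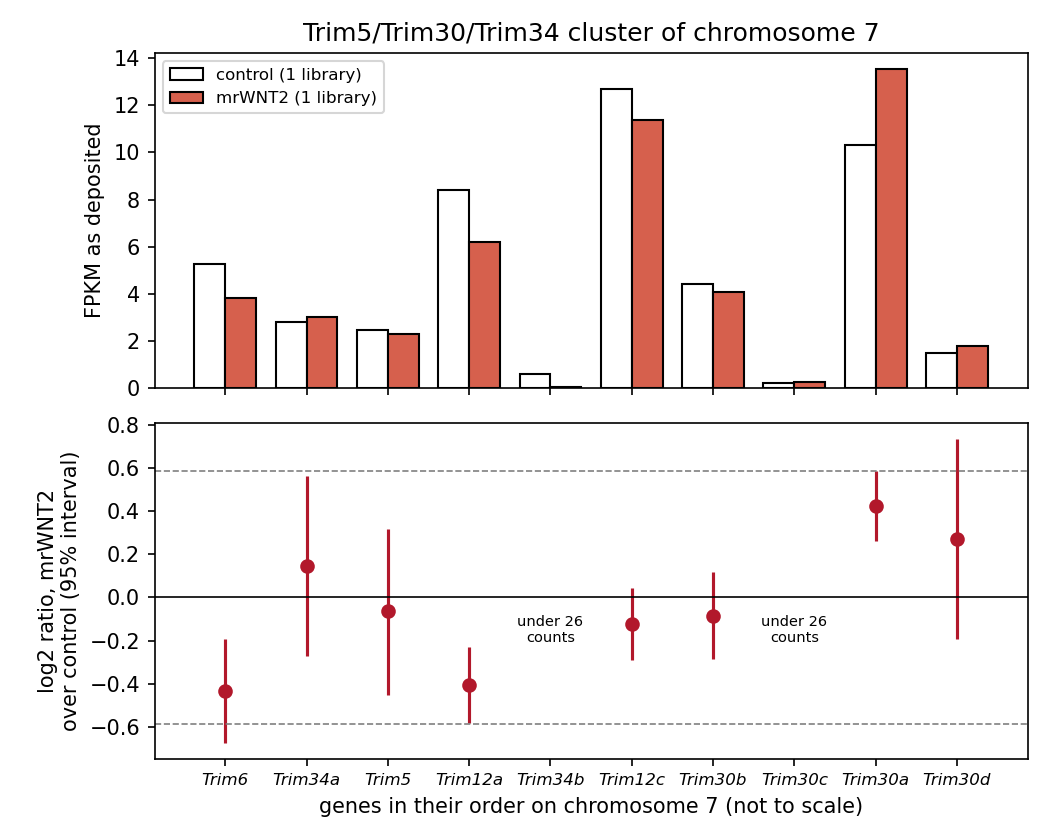
The 10 genes of the Trim5, Trim30 and Trim34 cluster in their order along chromosome 7: deposited FPKM in the control library (open bars) and the mrWNT2 library (filled bars) above, and log2 ratio of mrWNT2 over control with exact 95% counting intervals below (dashed lines at 1.5-fold; Trim34b and Trim30c had under 26 counts and no point). Trim6 and Trim12a lie below 0 and Trim30a above it, and the other 5 intervals cross 0.

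The 8 genes that held the interferon response core shown above did not go in one direction. Their log2 ratios ran from -0.41 (Trim12a) to 0.42 (Trim30a), 4 above and 4 below 0, with a median of 0.03. Of the 8, 0 lay beyond 1.5-fold, and 85.2% of all genes lay within it. The 21 expressed TRIM genes with a promoter entry and no match had a median of -0.03. Within the pair whose windows were identical, Trim5 had a log2 ratio of -0.06 and Trim12a one of -0.41, and for Trim30a and Trim30d the values were 0.42 and 0.27. A wider list of 11 TRIM genes known as interferon-inducible, which adds Trim14, Trim25 and Trim56, also had 0 beyond 1.5-fold and a median log2 ratio of 0.09. The consensus of NF-kB was searched on both strands as a letter pattern in which some positions may hold different bases. It was found in the promoters of Trim13, Trim28 and Trim46, or 3 of 29 genes, and in 8.46% of all single promoters, again in different units. The Trim13 match, which spans the start, and the Trim28 match are given with the consensus in capitals.
Trim13 (chr14:61598212-61598241, minus strand): acaaaggagtGGGGGCCTCCatccaatggc
Trim28 (chr7:13023966-13023995, plus strand): cacgttcggcGGGAACTTCCtggcaaagac
Of these 3 genes, Trim13 was 1.77-fold higher, while Trim28 was 1.11-fold higher and Trim46 had a ratio (0.631 to 1.88) that could not be told from 1.

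Among the other TRIM genes whose products end in a PRY-SPRY domain, a fold for binding proteins, 15 of 28 were expressed. Of these, 14 lay within 1.5-fold (85.2% of all genes), with Trim47 the exception. Beside Trim11, the intervals of Trim27 and Trim39 lay below 1. Trim27, whose product works with the endosomal WASH complex, had 943 and 759 counts (1.18-fold lower, 1.07 to 1.3), and Trim39 had 625 and 491 (1.21-fold lower, 1.07 to 1.37). Trim35 was the 1 member of the class with an interval above 1, with 431 and 494 counts (1.21-fold higher, 1.06 to 1.37). Trim21, which encodes the cytosolic antibody receptor, was at 3.42 and 3.62 FPKM and Trim26 at 4.84 and 4.53 FPKM. Trim14, an adaptor of the mitochondrial antiviral signalling protein MAVS, stood at 4.27 and 4.68 FPKM, and Trim16 at 5.25 and 4.41. The intervals of these 4 genes included 1. Of the exon bases of Trim14, 31.3% overlap the gene Nans on the opposite strand, which had 510 and 664 counts, so its reads are uncertain if strand was not used in counting. Trim65, which acts on the RNA sensor MDA5, Trim68, Trim62 and Trim43c stood at 1.35 FPKM or less in both libraries, again with intervals that included 1. For Trim43c, 38.6% of exon bases overlap an antisense gene model (9330159M07Rik) that had 67 and 66 counts, against 19 and 15 for Trim43c itself.

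The TRIM proteins with a PHD finger and a bromodomain read chromatin and act as transcriptional cofactors, and 3 of the 4 were expressed. Beside Trim28, Trim33, a regulator of SMAD4 and of blood cell differentiation, had 971 counts in control and 864 in mrWNT2, or 7.49 and 6.85 FPKM, with a ratio between 0.853 and 1.03. Trim24 had 470 and 378 counts, or 4.17 and 3.45 FPKM, and was 1.18-fold lower (1.03 to 1.36). Trim28 and Trim24 thus went in opposite directions, both by small amounts. The fourth, Trim66, had 2 counts in each library.

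Of the 4 genes whose products carry NHL repeats, a propeller-shaped fold, 2 were expressed. Trim3 had 281 and 321 counts (1.2-fold higher, 1.02 to 1.42), and Trim32, mutated in a form of limb girdle muscular dystrophy, had 78 and 82 (0.801 to 1.53). Of the 8 genes with a COS box, which binds microtubules, 3 were expressed, all at 0.615 FPKM or less in both libraries: Trim9, Trim46 and Trim36. Trim36 had 13 and 16 counts and was the weakest of the 40 by mean FPKM. The muscle ring finger genes Trim54, Trim55 and Trim63 belong to the same class, and all 3 had 0 counts in both libraries.

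The class with other carboxy-terminal parts, or none, held 9 expressed genes of 13, among them Trim29 and Trim13. Trim37, which encodes a peroxisomal and centriolar ligase, had 310 and 366 counts (1.24-fold higher, 1.06 to 1.45). Trim56, which acts in signalling from cytosolic DNA and RNA, went from 1211 to 1060 counts, and its ratio, 1.09-fold lower, had an interval (1.0 to 1.18) that just included 1. Trim8, a regulator of TNF signalling, stood at 10.2 FPKM in control and 9.65 in mrWNT2. Trim44, which lacks a RING finger, stood at 5.88 and 6.44 FPKM, Trim59 at 6.03 and 5.75, Trim23 at 2.3 and 2.06, and Trim45 at 0.391 and 0.531. The intervals of these 5 included 1, and Trim29 and Trim13 were the members of the class beyond 1.5-fold.

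The 28 TRIM genes below the minimum were 16 with a few counts and 12 at 0 counts throughout, where the upper limit of a level is 0.224 CPM (control) or 0.236 CPM (mrWNT2). Those at 0 were Trim31, Trim40, Trim42, Trim43a, Trim50, Trim52, Trim54, Trim55, Trim61, Trim63, Trim67 and Trim80. Trim2, Trim7, Trim10, Trim15, Trim17, Trim30c, Trim34b, Trim38, Trim43b, Trim58, Trim60, Trim66, Trim69, Trim71, Trim72 and Trim75 had between 1 and 17 counts in all. Just above the minimum stood Trim36 with 29 counts and Trim43c with 34, and just below it Trim58 with 17 and Trim34b with 16. Trim34b was the 1 of these with an interval that left out 1, with 15 counts in control and 1 in mrWNT2, a ratio of 0.0701 (0.00167 to 0.456). Of the 50-base stretches of its near copy Trim34a, 39.8% also occur in Trim34b. Trim38, known for its action on TAB2 and TAB3, had 4 counts in control and 1 in mrWNT2.

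Some TRIM proteins are encoded by genes with other names, and 3 of 4 of these were expressed. Mefv, which encodes the inflammasome sensor pyrin, had 142 counts in control and 470 in mrWNT2 and was 3.48-fold higher (2.88 to 4.23). Its fold was above that of every expressed gene named Trim other than Trim29. Pml, the organiser of nuclear bodies, had 1233 and 1183 counts, with a ratio between 0.931 and 1.09. Mid1 had 13 and 18 counts (0.674 to 3.23).

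The enzymes and partners of TRIM proteins are read against the same background, in which 85.2% of all genes lay within 1.5-fold, 7.6% were higher and 7.15% lower. Of 13 E1 and E2 enzymes of the ubiquitin pathway, 11 lay within 1.5-fold (84.6%), close to that background, and 1 was higher and 1 lower by at least 1.5-fold, with a median log2 ratio of 0.17. Ube2e2 had 9 and 34 counts (3.97-fold higher, 1.87 to 9.42), and Ube2v1, a partner of Ube2n in making the chains used in signalling, had 21 and 5 (3.99-fold lower, 1.47 to 13.6). Ube2e2 passed the minimum of 26 counts through the mrWNT2 library, where it was high, and Ube2v1 stood exactly at that minimum. Ube2v2, the other such partner, had 69 and 97 counts (1.48-fold higher, 1.07 to 2.04), and Ube2n itself 728 and 840. Of 18 genes of nucleic acid sensing and signalling on which TRIM proteins act, 1 was at least 1.5-fold higher, 0 were lower, and the median log2 ratio was 0.06. The gene was Ikbke, the kinase activated through TRIM6, with 1452 and 3161 counts (2.29-fold higher, 2.15 to 2.44). Ddx58, which encodes RIG-I, had 629 and 633 counts, and Ifih1, which encodes MDA5, had 315 and 387 (1.29-fold higher, 1.11 to 1.5), while Irf7 had 138 and 161 (0.971 to 1.55). Tab2 and Tab3, the targets of TRIM30a, had 2391 and 2382 counts and 517 and 427 counts. Of 14 partners of TRIM28 in silencing, 1 was at least 1.5-fold lower and 13 lay between. It was Zfp809, a zinc finger gene that directs TRIM28 to retroviral sequences, with 260 and 153 counts (1.62-fold lower, 1.32 to 1.99), while Setdb1 had 899 and 845. Zfp57 had 53 and 39 counts (0.498 to 1.19), and Cbx1, a heterochromatin protein gene, had 492 and 549 (1.17-fold higher, 1.04 to 1.33).

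Of 12 genes of interferon signalling, 12 had a ratio within 1.5-fold, with a median log2 ratio of -0.04. The background within that fold was 85.2% of all genes and 87.6% of protein-coding genes. The list held receptors and transducers, and also Irf1, Socs1 and Usp18. Usp18 had 17 and 18 counts, and its interval (0.541 to 2.3) reached beyond that fold. Receptor chains went both ways, with Ifnar1 1.26-fold higher (1.16 to 1.37), Ifngr2 1.24-fold higher (1.14 to 1.34) and Ifngr1 1.24-fold lower (1.17 to 1.31). Of 16 interferon-stimulated genes outside the TRIM family, 11 were expressed, 5 at least 1.5-fold higher (7.6% of all genes) and 1 lower (7.15% of all genes), with a median log2 ratio of 0.55. Cxcl10 and Gbp3, which are 2 of the 5, had under 26 counts in control and passed the minimum through the mrWNT2 library, where they were high. Oas1a had 91 and 174 counts (2.01-fold higher, 1.55 to 2.62), Bst2 131 and 238 (1.91-fold, 1.54 to 2.38) and Cxcl10 18 and 48 (2.8-fold, 1.6 to 5.12). Gbp3 had 18 and 40 (2.34-fold higher, 1.31 to 4.33), while Mx1 had 20 and 7 (2.72-fold lower, 1.1 to 7.6). With 27 counts in all, Mx1 stood just above the minimum. Within 1.5-fold lay Oas2, with 69 and 96 counts (1.46-fold higher, 1.06 to 2.02). Ifit2 (99 and 91 counts), Rsad2 (30 and 25), Isg15 (18 and 22) and Xaf1 (19 and 22) also lay within it, with intervals that included 1. The TRIM genes known as interferon-inducible had 0 of 11 beyond 1.5-fold (85.2% of all genes lay within it). They are set beside the interferon-stimulated genes as values, and the difference between the lists was not tested.

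**Figure D5:**
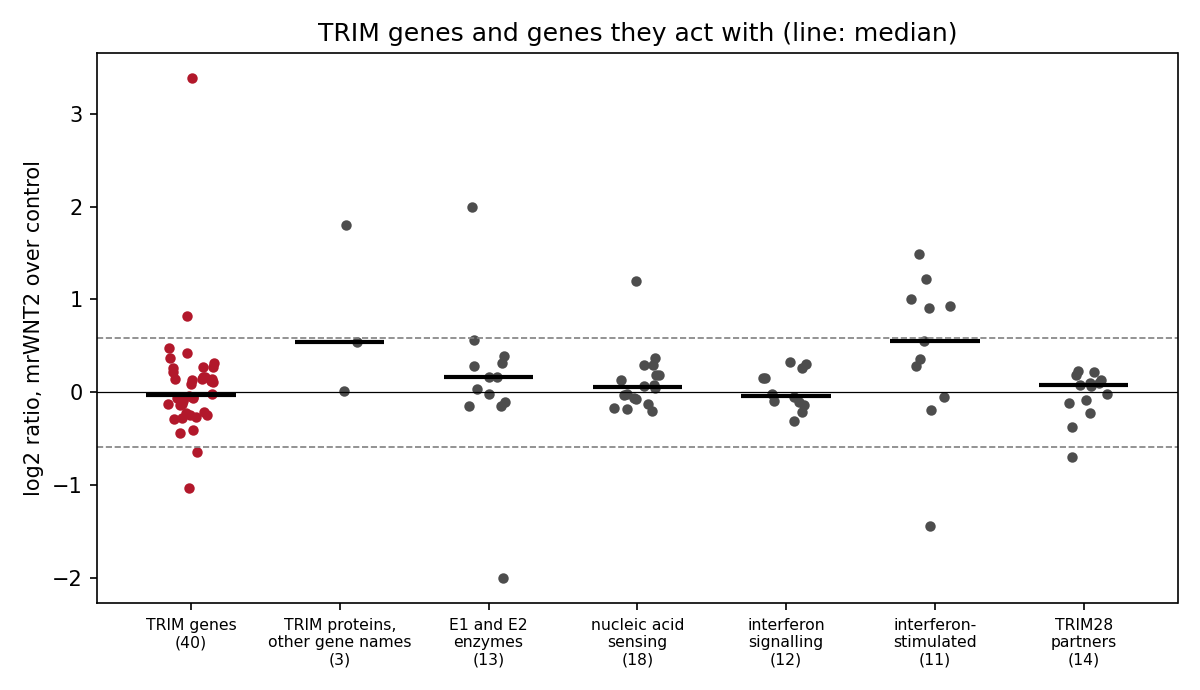
Log2 ratio of mrWNT2 over control (vertical axis) for the 40 TRIM genes (red) and for the expressed genes of 6 related lists (grey), 1 point per gene, with the number of genes under each list, the median as a black line and dashed lines at 1.5-fold. The TRIM median is at -0.02 and that of the 11 interferon-stimulated genes at 0.55, while Mefv at 1.8 is the highest point among TRIM proteins under other gene names.

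Markers of the labelled cells were abundant in both libraries: S100a8, S100a9, Lyz2, Ly6c2, Itgam, Csf3r and Ptprc each had at least 6070 counts and lay within 1.5-fold. Of the 11 markers on that list 2 were at least 1.5-fold higher (7.6% of all genes) and 1 lower (7.15% of all genes). The neutrophil marker Ly6g went from 2315 to 1098 counts (2.0-fold lower), while the monocyte and macrophage markers Cd14 and Csf1r went from 1543 to 2981 (2.03-fold higher) and from 1954 to 4405 (2.37-fold higher). In bulk RNA, fewer cells of a type and less RNA per cell cannot be told apart. Of 11 macrophage markers, 8 were at least 1.5-fold lower in mrWNT2 (7.15% of all genes) and 2 higher (7.6%). The 2 were Marco, with 560 and 4618 counts (8.67-fold higher), and Adgre1, with 4349 and 7426 (1.8-fold higher). Among the 8, Cd5l (215 and 11 counts) and Vsig4 (80 and 19) passed the minimum through control, where they were high. The summed level of the 11 markers was 2755 CPM in control and 1869 in mrWNT2. Of this, Mrc1 made up 943 and 307 CPM and Apoe 796 and 313. Stromal and endothelial markers summed to 70.8 and 59.9 CPM, with 4 of 7 expressed markers at least 1.5-fold lower (7.15% of all genes). Most of this sum was Pecam1, at 41.6 and 47.9 CPM, the 1 expressed marker of the list with a ratio above 1. The other endothelial marker, Cdh5, had 1 count in control and 0 in mrWNT2. Of the 4 lower markers, Col1a2 (66 and 15 counts), Bgn (53 and 17) and Sparc (42 and 13) passed the minimum through control, where they were high. Of 8 erythroid and megakaryocyte markers, 3 were expressed and 1 of these, Pf4, was at least 1.5-fold lower (2.76-fold, against 7.15% of all genes). Ppbp was 1.24-fold lower (1.09 to 1.4), Itga2b had 911 and 851 counts with an interval that included 1, and Hbb-bs was at 0. The part of these cell types in the ratios of the TRIM genes was not tested. T and NK cell markers had at most 15 counts, with Cd8b1 and Ncr1 at 0 in both libraries. B cell markers had at most 40 counts, with Pax5 at 0. Of 7 dendritic cell markers, 2 were expressed, Clec9a and Ccr7, both within 1.5-fold.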

How the data were processed

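The authors deposited raw counts per gene and, in a second table, FPKM, each with 1 column per library. Per the submitters' processing notes, the tools included HISAT2 2.0.5, featureCounts 1.5.0-p3, DESeq2 1.20.0, fastp and CASAVA 1.8, with GRCm38 (mm10) as the build; the labels' protocols name the NEBNext Ultra RNA kit. Strand use and the treatment of multiply mapped reads are not given in the sources used here. Over 10078 genes with more than 50 counts in each library, the FPKM and count ratios under DESeq2 size factors differed by at most 1.2e-08 (log2).

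TMM scaling on the whole table (edgeR 4.0.16, R 4.3.3) gave factors of 1.01 for mrWNT2 and 0.992 for control, and counts so scaled were used for CPM and ratios. Ratios have exact 95% Clopper-Pearson intervals from the 2 counts. A ratio was given only where a library had more than 3 counts, and 3 counts served as the upper limit of a count of 0. The method was run on simulated counts that held counting error alone, so this run says nothing about variation between cultures. All expressed TRIM genes are named, with full values for those beyond 1.5-fold with an interval without 1, the 6 highest by FPKM and the chromosome 7 cluster, and up to 3 genes of each related list; others are examples chosen after their values were seen. Members and lists were chosen with earlier results of these data known, and all 204 listed symbols were found. Epithelial and neuronal markers were added after the values were seen. Of the 68 genes, all were found in GENCODE M21, 66 with the same start and end. Reads carry no molecular identifiers, so intervals cover counting error only. Alternatives were other scalings, the FPKM ratio, other count minimums, a fold of 2, a pseudocount and leaving out the cluster.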

Additional observations from a re-analysis of the deposited data

How the results depend on the processing

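With DESeq2 size factors, total count scaling or the deposited FPKM ratio, the same 2 counts of TRIM genes beyond 1.5-fold were found (2 higher and 2 lower), as they were without the chromosome 7 cluster. Without the count minimum, over the 49 genes with more than 3 counts in a library, 4 were higher and 7 lower. The genes added by this setting had under 26 counts in all. With at least 260 counts (26 genes), 1 was higher and 0 lower. For these 2 settings the share of all genes was not computed, so the counts cannot be set against a background. With a fold of 2, 1 was higher (3.37% of all genes) and 1 lower (2.58%). When the interval also had to leave out a ratio of 1, 2 were higher and 1 lower, since Trim47 was then not counted. The median log2 ratio lay between -0.06 and 0.04 over the alternatives tried. Of 160 single-gene values under 4 alternatives, 160 stayed within the gene's counting interval. This outcome was largely fixed beforehand and is no check of the ratios. The other scalings moved a log2 ratio by at most 0.034, against a median half-width of 0.24 for the intervals. The FPKM ratio also gave nearly the same values as the DESeq2 size factors. Trim41 changed sign under total count scaling (0.01 on the log2 scale, against -0.02), and Trim47 fell within 1.5-fold with a pseudocount of 0.5 CPM (-0.52). Depth limits the genes with few counts, among them Trim29 with 12 in control (interval of the log2 ratio 2.52 to 4.38). No paired analysis was possible because each group had 1 library.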
